A study of Mus musculus with 6 samples.

Results

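Transcripts of 10 genes of the YAP/TAZ pathway were examined in mouse endothelium of brain origin, the lining of blood vessels. They were chosen by symbol and comprise the coactivators Yap1 and Wwtr1 (the gene for TAZ), their DNA-binding partners Tead1 and Tead4, the regulators Lats2, Amotl2 and Ajuba, and the targets Ctgf, Cyr61 and Ankrd1. All 10 symbols were found among the 24421 genes of the count table, Ctgf and Cyr61 under these older names (Ccn2 and Ccn1 in current annotation), and all 10 passed the filter on low counts.

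The study set 3 samples labelled Fli-1 knockout beside 3 labelled wild-type, each numbered 1 to 3 and described as endothelial cells of brain origin. The series design places them 6 days after deletion of Fli-1 was induced, in co-culture with a vascular niche. Deletion of the Fli-1 alleles with 4-OHT (4-hydroxytamoxifen, the drug that switches on tamoxifen-inducible recombinases) is stated in the treatment text of all 6 samples, wild-type included. The labels name neither the recombinase, its promoter, the deleted part of the gene nor the age of the animals, and do not tell whether replicates were grown or collected separately. All p-values therefore measure only the spread between these samples, which may be technical.

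YAP and TAZ are transcriptional coactivators that respond to cell contact, stiffness and shear. In the Hippo pathway the kinases MST1/2 (genes Stk4 and Stk3) activate the LATS kinases, which phosphorylate YAP and TAZ and hold them in the cytoplasm. When not phosphorylated, YAP and TAZ enter the nucleus, bind TEAD factors and switch on genes such as Ctgf, Cyr61 and Ankrd1. In endothelium the pathway is known for its part in sprouting, junction remodelling and responses to flow. It is controlled largely by phosphorylation and location of the proteins, which RNA counts do not measure.

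The TEAD recognition sequence is shown first because it is the element through which these coactivators reach their targets. The motif searched was GGAATG, which reads CATTCC on the other strand. Its first 4 letters, GGAA, are also the core bound by ETS factors, the family of FLI1. RefSeq promoter windows of GRCm38.p6, 250 bases before to 50 after a start, were matched for 7 of the 10 genes. No window was matched for Tead1, Tead4 and Ctgf. Wwtr1 and Lats2 had 2 windows each and the others 1. All 7 matched genes held the motif in at least 1 window, against 14.7% of 32851 windows of this length. Here and below a gene counts if any of its windows holds a motif, while the share is of single windows. In the 250 bases before the start alone it was 6 of 7 genes, against 12.6% of windows, since the Lats2 match lay wholly after the start. A match is a description of the letters and no evidence of binding. The 250 bases before the start of Cyr61 and Yap1, whose levels moved in opposite directions across the libraries, and 30 bases around the motif in the others are printed 5′ to 3′ on the gene's strand, with the motif in capitals.
Cyr61 promoter (chr3:145649986-145650235, minus strand): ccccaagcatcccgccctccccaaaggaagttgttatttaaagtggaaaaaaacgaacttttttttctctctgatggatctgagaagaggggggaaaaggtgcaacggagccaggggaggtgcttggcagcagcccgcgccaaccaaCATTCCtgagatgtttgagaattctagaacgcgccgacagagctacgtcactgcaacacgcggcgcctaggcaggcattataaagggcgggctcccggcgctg
Yap1 promoter (chr9:8004597-8004846, minus strand): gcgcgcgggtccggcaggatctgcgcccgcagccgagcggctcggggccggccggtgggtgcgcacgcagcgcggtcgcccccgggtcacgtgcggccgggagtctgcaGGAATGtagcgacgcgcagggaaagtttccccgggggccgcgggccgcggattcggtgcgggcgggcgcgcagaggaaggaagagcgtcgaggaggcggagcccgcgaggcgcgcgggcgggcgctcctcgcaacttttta
Ankrd1 first site (chr19:36120037-36120066, minus strand): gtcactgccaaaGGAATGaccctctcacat
Ankrd1 second site (chr19:36119950-36119979, minus strand): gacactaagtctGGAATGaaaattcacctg
Wwtr1 site (chr3:57576029-57576058, minus strand): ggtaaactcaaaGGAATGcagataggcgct
Amotl2 site (chr9:102717727-102717756, plus strand): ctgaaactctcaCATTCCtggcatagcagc
Ajuba first site (chr14:54577830-54577859, minus strand): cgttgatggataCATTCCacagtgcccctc
Ajuba second site (chr14:54577808-54577837, minus strand): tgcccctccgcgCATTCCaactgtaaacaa

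The motif began 103 bases before the start in Cyr61, 141 in Yap1 and 136 before 1 of the starts of Wwtr1. It began 210 and 123 bases before the start in Ankrd1, 65 in Amotl2, and 186 and 164 in Ajuba. All these starts are those of RefSeq. By the GENCODE gene positions given below, the Ankrd1 and Amotl2 sites and both Lats2 windows lie inside the gene. A longer ETS motif, GGAAGT or ACTTCC, was present in 1 of the 7 genes, Cyr61, against 23.8% of windows. It shares GGAA with the TEAD motif but cannot occupy the same letters. The CArG box, the element of serum response factor, was found in 0 of 7 genes, against 1.63% of windows. That says only that these letters are not in these windows.

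Total counts ranged from 17550185 to 21385951 reads per library, and the 10 genes together took 0.73% to 0.861% of them. Fli1 itself went against the labels: it stood at 76.8, 111 and 77.4 CPM (counts scaled by edgeR to a common library size, the usual CPM unit) in knockout libraries 1 to 3 and at 45.3, 59.6 and 45.8 CPM in wild-type libraries 1 to 3. Every knockout library was above every wild-type library. In edgeR with the replicate number as a block, the log2 fold change of Fli1 was 0.81 (adjusted p = 1.25e-15). It was 0.76 to 0.83 when both libraries of a number were left out. Without the block it was also 0.81, at an adjusted p of 0.878. Reads from undeleted exons are included, so these counts do not check the deletion. The cause of the higher Fli1 counts under the knockout label was not tested. Knockout and wild-type below mean libraries with those labels, and every direction is that of the labels. The 10 endothelial markers summed to 15423 to 17257 CPM in the knockout libraries and 14558 to 16147 CPM in the wild-type libraries, led by Cdh5. Marker sums of other cell types were 1446 to 1895 against 1426 to 2250 CPM for mural cells, led by Tagln, and 114 to 229 against 83.9 to 192 CPM for blood cells, nearly all from Laptm5, with Tyrobp, Cd3e and Rac2 at 0 reads. Astrocyte and neuron markers summed to 24.3 to 31.4 against 19.3 to 40.0 CPM, led by Tubb3, with Aqp4 and Olig2 at 0 reads. Fibroblast markers summed to 19952 to 24581 against 17399 to 21951 CPM, nearly all from Fn1, which endothelial cells also make. In bulk RNA, fewer cells of a type and less RNA per cell cannot be told apart.

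The comparison asked whether transcripts of the YAP/TAZ pathway differed between cells labelled knockout and wild-type. The 3 targets remained among the abundant transcripts in both groups and their log2 fold changes were at most 0.07. In the edgeR quasi-likelihood comparison of the groups, 0 of 10 genes passed a false discovery rate (FDR) of 0.05, and 0 had an unadjusted p under 0.05. DESeq2 and limma-voom also called 0 of the 10. Of all 12753 genes tested, 0.00784% passed. A second fit kept the replicate number as a block (the paired test), and in it 1 of 10 passed. That gene was Tead1, which was lower in the knockout libraries, and 0 of 10 were higher. Among all genes 4.01% were called lower, 4.81% higher and 8.81% in either direction. Of the 10 genes, 5 had the same sign in all 3 same-numbered pairs, against 40.7% of all genes. The groups did not overlap for 1 of 10 (Tead1, with knockout below), against 10.2% of all genes, 5.25% with knockout above and 4.96% with knockout below. These shares are close to those of all genes.

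**Figure D1:**
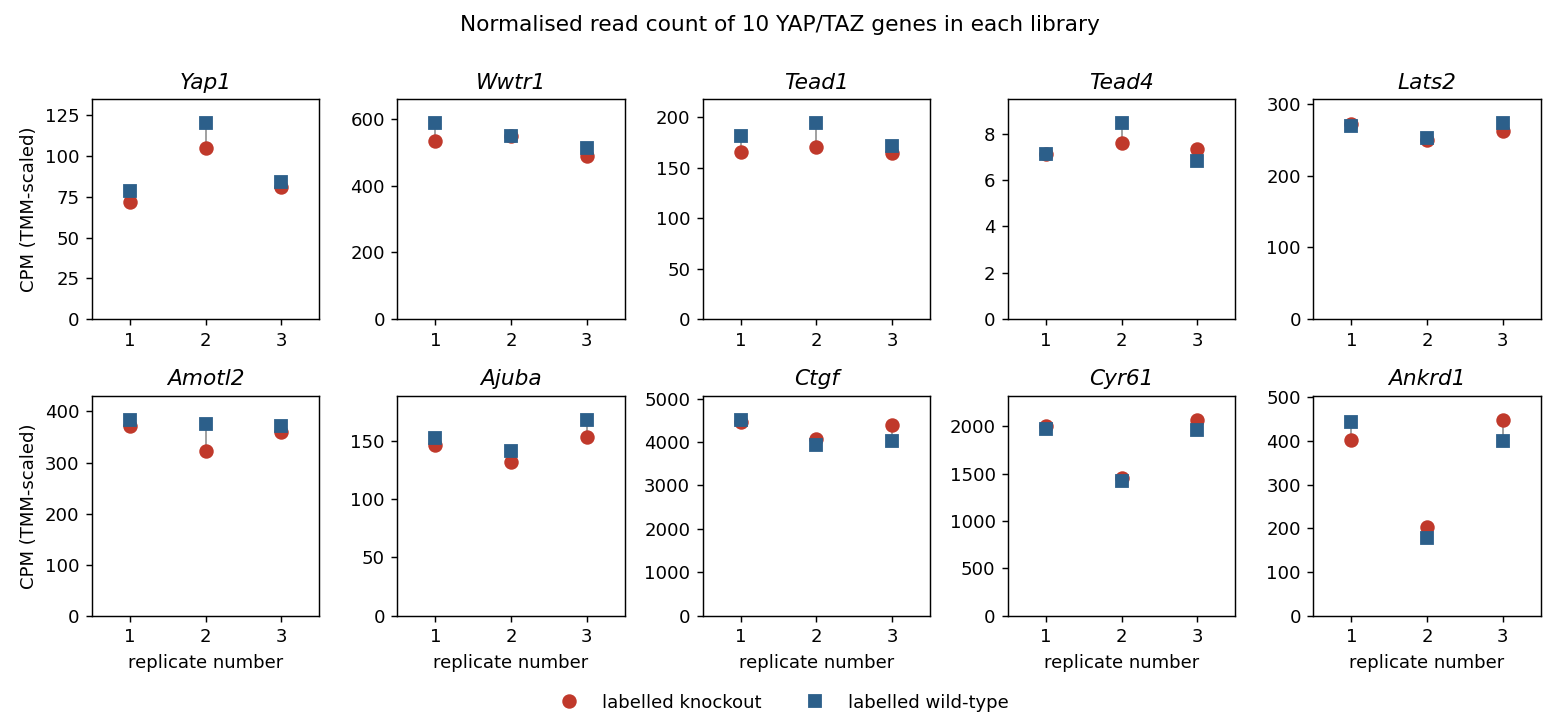
Normalised read count (CPM, TMM-scaled, linear axis from 0) of each gene by replicate number, 1 point per library, red circles for libraries labelled knockout and blue squares for wild-type, with same-numbered libraries joined. The 2 libraries of a number lie close together, Ankrd1 and Cyr61 are lowest and Yap1 highest at number 2, and the groups separate only for Tead1.

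Levels between genes were compared per kilobase of exon. Ctgf, a secreted matricellular protein, averaged 1478 ± 88.4 CPM per kb (SD over 6 libraries) and ranked 7 among 12292 tested genes of known exon length. Cyr61, its relative, averaged 900 ± 145 CPM per kb and ranked 18. Ankrd1, a nuclear and sarcomeric ankyrin repeat protein, averaged 120 ± 42.3 CPM per kb, and Wwtr1 averaged 112 ± 7.08 CPM per kb. The order then ran through Amotl2 at 57.9, Ajuba at 40.8, Lats2 at 37.7, Tead1 at 12.8, Yap1 at 9.72 and Tead4 at 2.06 CPM per kb. Neighbours in this order had overlapping ranges for Ankrd1 and Wwtr1, Ajuba and Lats2, and Tead1 and Yap1. Ranges of the other neighbours did not overlap. Within libraries, Ajuba was above Lats2 and Tead1 above Yap1 in all 6, and Ankrd1 was above Wwtr1 in 4.

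Of the coactivators, TAZ transcripts were more abundant than YAP transcripts. The ratio of Wwtr1 to Yap1 reads per exon base was 14.4, 10.1 and 11.7 in knockout libraries 1 to 3 and 14.5, 8.88 and 11.8 in wild-type libraries 1 to 3, lowest at number 2 in both groups. Yap1 (chr9:7931999-8004596) stood at 72.0, 105 and 80.7 CPM in knockout libraries 1 to 3 and 78.6, 120 and 84.0 CPM in wild-type libraries 1 to 3. It was lower in the knockout library in all 3 pairs, but the groups overlapped because both libraries numbered 2 were high. On the log2 scale the knockout libraries differed by -0.13 ± 0.211 (SE, adjusted p = 0.996) in edgeR without the block. In the paired test the value was -0.13 ± 0.0476 and the adjusted p 0.0934. With scaling by library size alone the paired log2 fold change was -0.15 and passed, at an adjusted p of 0.0318.

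Wwtr1 (chr3:57455649-57575910) stood at 534, 549 and 489 CPM in knockout libraries 1 to 3 and 587, 548 and 511 CPM in wild-type libraries 1 to 3. The groups overlapped, and pair 2 showed no difference. The log2 fold change was -0.07 ± 0.0408 (SE) in the paired test, with a 95% interval from -0.15 to 0.02 and an adjusted p of 0.381.

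TEAD factors supply the DNA-binding domain that YAP and TAZ lack. Tead1 (chr7:112679318-112906807) stood at 165, 170 and 164 CPM in knockout libraries 1 to 3 and 181, 194 and 171 CPM in wild-type libraries 1 to 3. Every knockout library lay below every wild-type library. The means were 166 ± 3.23 against 182 ± 11.4 CPM (SD, n = 3). In edgeR without the block this was -0.13 ± 0.0603 (SE) on the log2 scale, at an adjusted p of 0.996. In the paired test the same fold change of -0.13 ± 0.0422 passed at an adjusted p of 0.0453. It did not pass without pair 2 (-0.10, adjusted p = 0.535) or in DESeq2 with the block (-0.13, adjusted p = 0.312), and over all paired alternatives its adjusted p ranged from 0.0118 to 1.

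Tead4 (chr6:128224288-128300823) was low, at 7.14, 7.59 and 7.36 CPM in knockout libraries 1 to 3 and 7.11, 8.46 and 6.83 CPM in wild-type libraries 1 to 3. These rest on 127 to 178 reads per library. The values overlapped, and the paired log2 fold change of -0.02 had a 95% interval from -0.26 to 0.22, wider than that of any other of the 10 genes. The other TEAD genes were not among the 10 but belong to a list of YAP, TAZ and nuclear partners. Per kilobase, Tead2 averaged 11.4 ± 1.32 CPM, near Tead1, and Tead3 averaged 0.352 ± 0.362 CPM (SD over 6 libraries). Tead2 moved opposite to Tead1: it stood at 55.9, 63.9 and 56.4 CPM in knockout libraries 1 to 3 and 44.3, 53.4 and 54.8 CPM in wild-type libraries 1 to 3. Its paired log2 fold change was 0.21, with an adjusted p of 0.00913 by edgeR. It did not pass without pair 1 (0.15, adjusted p = 0.123), without pair 2 (0.19, adjusted p = 0.175) or in DESeq2 with the block (0.21, adjusted p = 0.234).

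A further 3 genes restrain or modulate the pathway. Lats2 (chr14:57689662-57758388), the kinase that phosphorylates YAP and is also a YAP target, stood at 272, 249 and 262 CPM in knockout libraries 1 to 3 and 269, 252 and 273 CPM in wild-type libraries 1 to 3. Its groups overlapped throughout, with a paired log2 fold change of -0.02 and a 95% interval from -0.10 to 0.06. Amotl2 (chr9:102716672-102733418), an angiomotin that holds YAP at junctions and is itself a YAP target, stood at 371, 322 and 359 CPM in knockout libraries 1 to 3 and 384, 376 and 371 CPM in wild-type libraries 1 to 3. It was lower in all 3 pairs, and knockout library 2 was the lowest. Its paired log2 fold change of -0.11 ± 0.0423 (SE) had an adjusted p of 0.124 in edgeR, and without pair 1 it was -0.14 with an adjusted p of 0.02. Without pair 2 it was -0.049 (adjusted p = 0.827), and with scaling by library size alone -0.13 (adjusted p = 0.0392).

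Ajuba (chr14:54567472-54577558), a LIM protein that binds and inhibits LATS kinases, stood at 146, 132 and 153 CPM in knockout libraries 1 to 3 and 152, 141 and 168 CPM in wild-type libraries 1 to 3. It was lower in all 3 pairs and the groups overlapped. The paired log2 fold change of -0.09 ± 0.0426 (SE) had an adjusted p of 0.184 in edgeR.

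Ctgf (chr10:24595442-24598683) stood at 4456, 4064 and 4387 CPM in knockout libraries 1 to 3 and 4515, 3926 and 4022 CPM in wild-type libraries 1 to 3. The groups overlapped, and the pairs gave log2 ratios of -0.02, 0.05 and 0.13. In the paired test Ctgf had a log2 fold change of 0.05 ± 0.0413 (SE), with a 95% interval from -0.03 to 0.14 and an adjusted p of 0.533. Without the block the interval was -0.15 to 0.25. A change of Ctgf beyond these bounds would lie outside the intervals, while smaller ones in either direction would not.

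Cyr61 (chr3:145646976-145649981) stood at 2007, 1460 and 2072 CPM in knockout libraries 1 to 3 and 1971, 1422 and 1964 CPM in wild-type libraries 1 to 3. Each knockout library was slightly above its same-numbered partner, by log2 ratios of 0.03, 0.04 and 0.08, and both libraries numbered 2 were low. The paired log2 fold change of 0.05 had a 95% interval from -0.03 to 0.13 and an adjusted p of 0.564, and the interval without the block was -0.38 to 0.48.

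Ankrd1 (chr19:36111961-36120099) stood at 402, 204 and 449 CPM in knockout libraries 1 to 3 and 443, 178 and 400 CPM in wild-type libraries 1 to 3. The pairs went both ways, at log2 ratios of -0.14, 0.20 and 0.17. Its paired log2 fold change of 0.07 ± 0.0519 (SE) had an adjusted p of 0.505. Without pair 1 it was 0.18 and passed, at an adjusted p of 0.000979, and without pair 2 it was 0.01 (adjusted p = 0.971). Without the block the 95% interval of Ankrd1 ran from -1.12 to 1.21, so a doubling in either direction lay within it.

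**Figure D2:**
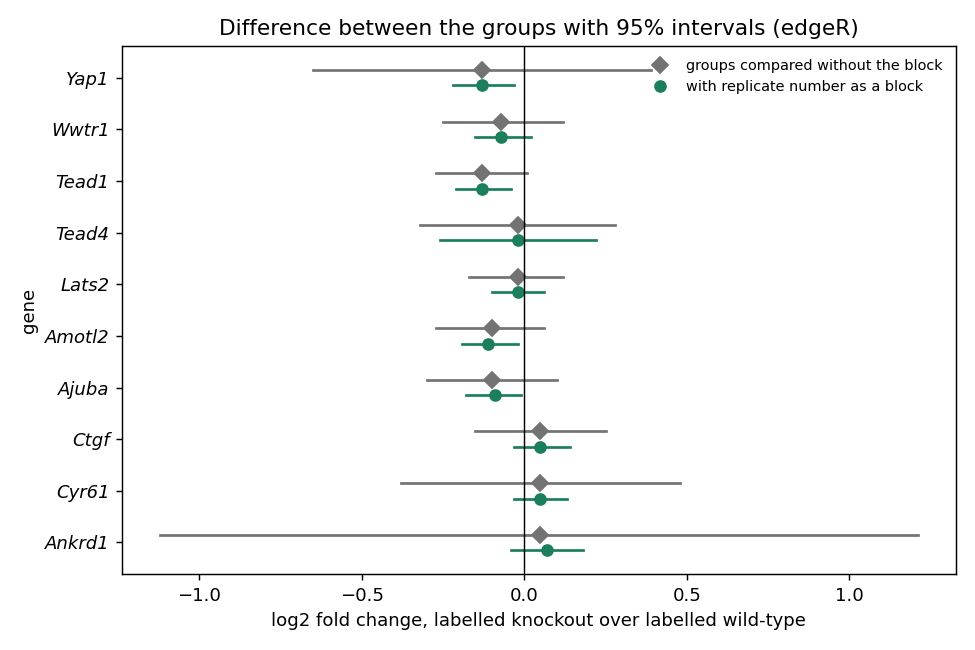
Log2 fold change of each gene, labelled knockout over labelled wild-type, with 95% intervals from edgeR: grey diamonds for the groups compared without the block, green circles with the replicate number as a block. Estimates of both tests lie between -0.13 and 0.07, and the intervals of Yap1, Cyr61 and Ankrd1 are the ones most narrowed by the block.

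The larger differences lay between replicate numbers. In a test of the replicate number with the group in the model, chosen after the values were seen, 6 of the 10 genes passed (Yap1, Wwtr1, Ajuba, Ctgf, Cyr61 and Ankrd1), against 34.1% of all genes. Without knockout library 2 or without wild-type library 2, 3 of them passed (Yap1, Cyr61 and Ankrd1), against 25.2% and 23.6% of all genes in those fits. Ankrd1 averaged 422, 191 and 424 CPM at numbers 1 to 3, 2.22 times higher at the mean of numbers 1 and 3 than at number 2 (adjusted p = 1.27e-12 in edgeR). Cyr61 averaged 1989, 1441 and 2018 CPM, 1.39 times higher (adjusted p = 2.06e-11 in edgeR). Yap1 ran the other way, at 75.3, 112 and 82.3 CPM, 1.42 times higher at number 2 (adjusted p = 5.5e-11 in edgeR).

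The other passing genes differed by number by at most 1.17 times between the highest and the lowest number. Across the 6 libraries, which fall into 3 pairs that share whatever the number stands for, the log2 CPM of Cyr61 and Ankrd1 had a Pearson correlation of 0.99. Yap1 had a correlation of -0.95 with each of them and of -0.83 with Ctgf, with no test. Other genes of the YAP/TAZ target set described below went both ways at number 2. Those named here were picked after their values were seen. Igfbp3 averaged 620, 955 and 432 CPM and Axl 28.4, 118 and 51.5 CPM at numbers 1 to 3, highest at number 2. Tgfb2 averaged 162, 120 and 146 CPM, lowest there.

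Markers of stromal cells varied with the replicate number as well. By the mean CPM of each number, 7 of 8 fibroblast markers and 7 of 9 mural markers tested were highest at number 2. The share of all genes highest at number 2 was not counted, so these counts do not set stromal markers apart from other genes. The most abundant of each list went the other way and were lowest there: Fn1 averaged 21904, 17466 and 22788 CPM at numbers 1 to 3, and Tagln 1076, 998 and 1334 CPM. Of 10 endothelial markers 6 were lowest and 1 was highest at number 2, the latter being Tek at 109, 137 and 99.2 CPM. The next 3 genes and Tek were picked after their values were seen. Col1a1, a fibroblast collagen, stood at 71.0, 508 and 220 CPM in knockout libraries 1 to 3 and 88.5, 730 and 239 CPM in wild-type libraries 1 to 3. Pdgfrb, a pericyte receptor, stood at 10.5, 53.8 and 11.4 CPM and at 15.8, 81.3 and 10.2 CPM. Pecam1, an endothelial adhesion molecule, was lowest at number 2 in both groups, at 4078, 3264 and 3511 CPM and at 3717, 2958 and 3531 CPM. Tead3 and Vgll3, a TEAD cofactor, were highest at number 2 too, at 3.15 and 15.6 CPM in knockout library 2 and 6.98 and 22.6 CPM in wild-type library 2. The part of stromal cells in the levels of Yap1, Cyr61 and Ankrd1 was not tested.

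**Figure D3:**
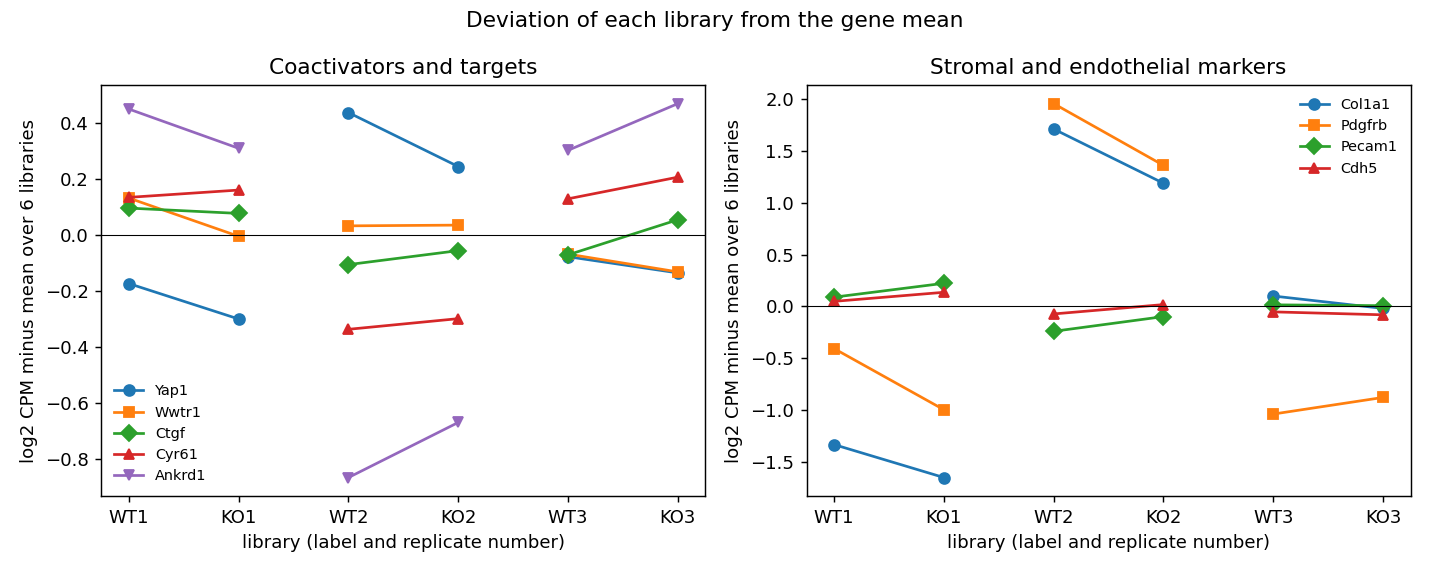
Log2 CPM of each gene minus its mean over the 6 libraries, for coactivators and targets (left) and stromal and endothelial markers (right), with same-numbered libraries joined and KO and WT standing for the labels. At number 2, Ankrd1 and Cyr61 lie below their means and Yap1, Col1a1 and Pdgfrb above.

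The genes whose log2 CPM ran closest to each of 5 genes over the 6 libraries, among 8986 genes of at least 10 CPM, were ranked by Pearson correlation as a description. For Ctgf they were Parp14, Whamm and Eogt (0.992, 0.99 and 0.984). For Cyr61 they were Dhh, Itga3 and Ccbe1 (0.996, 0.996 and 0.995), and for Ankrd1 Snx10, Mertk and Wbscr27 (0.996, 0.994 and 0.994). For Yap1 they were Xbp1, Fzd1 and Sept11 (0.997, 0.996 and 0.995), and for Wwtr1 Abhd13, Mpp5 and Atp11b (0.998, 0.994 and 0.993). These values come from only 6 libraries in 3 pairs and were not tested. Of the 8986 genes, 257 exceeded 0.95 with Cyr61, 230 with Ankrd1, 162 with Yap1, 61 with Wwtr1 and 24 with Ctgf.

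The wider pathway was read from 5 lists holding 68 different genes tested, of which 7 were called higher and 4 lower in the paired test (16.2%, against 8.81% of all genes, 4.81% higher and 4.01% lower) and 0 in edgeR without the block, where 3 had an unadjusted p under 0.05 and DESeq2 and limma-voom also called 0. Of 15 Hippo kinases and adaptors tested, which include Lats2, 0 passed in either direction, with a median paired log2 fold change of -0.03 against 0.00 for all genes. An unadjusted p under 0.05 was found for 3 of them. Taok1, a kinase that activates MST, and Lats1 both had a paired log2 fold change of -0.13 (adjusted p = 0.0764 and 0.236 by edgeR). Without pair 3 these 2 passed, at -0.19 (adjusted p = 0.00817) for Taok1 and -0.24 (adjusted p = 0.00529) for Lats1, so that 2 of the list were lower. Among all genes 600 were lower in that fit. Without pair 1 they were -0.063 and -0.046. Taok1 also passed with library size alone (-0.15, adjusted p = 0.0246). Stk3, the MST2 kinase, had 0.12 without overlap of the groups (adjusted p = 0.108). Of the others, Taok3 had -0.11 (adjusted p = 0.32).

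Of 11 cytoplasmic inhibitors of YAP/TAZ and of LATS, 1 fell and 0 rose (9.09%, against 8.81% of all genes), with a median of -0.03. That gene was Ptpn14, a phosphatase that binds YAP and is also listed as a target. It averaged 208 ± 4.49 against 234 ± 9.87 CPM (SD, n = 3), without overlap, a paired log2 fold change of -0.17 with an adjusted p of 0.00528 by edgeR. Without pair 2 its log2 fold change was also -0.17 but did not pass (adjusted p = 0.115). Tjp1, the tight junction scaffold, had a paired log2 fold change of 0.10 (adjusted p = 0.102), Wtip -0.15 and Amot 0.13, none of which passed.

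Of 8 coactivators and nuclear partners, 1 rose (Tead2) and 2 fell (Tead1 and Tead3), with a median of -0.13. That is 37.5%, against 8.81% of all genes. Tead3 averaged 1.68 ± 1.32 against 3.05 ± 3.41 CPM (SD, n = 3), and its paired log2 fold change of -0.79 (adjusted p = 0.0275 by edgeR) rested on pair 2, since without it the value was -0.24 (adjusted p = 0.864). It did not pass in DESeq2 with the block either (-0.63, adjusted p = 0.724). Vgll4, which competes with YAP for TEAD, missed the threshold with a paired log2 fold change of -0.26 and an adjusted p of 0.0506. With library size alone it passed (-0.28, adjusted p = 0.0265). Vgll3 had -0.30 (adjusted p = 0.261), which became -0.53 and passed without pair 3 (adjusted p = 0.000535) and was -0.044 without pair 2. Without pair 2, 0 genes of this list passed, with 339 higher and 205 lower among all genes in that fit.

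A published set of 22 conserved YAP/TAZ targets, which includes 5 of the 10 genes, split in both directions in the paired test. There 4 rose, 2 fell and 16 did not pass, and the median was 0.03 on the log2 scale. The share that passed was 27.3%, against 8.81% of all genes. The 4 that rose were Tgfb2, a TGF-β ligand, by 0.26, Gadd45a, a stress-inducible growth arrest gene that p53 also activates, by 0.27, Nt5e, the ectonucleotidase CD73, by 0.37 and Crim1, a membrane protein that binds BMPs, by 0.12 on the log2 scale. Nt5e and Crim1 were named after their values were seen. Crim1 passed narrowly (adjusted p = 0.0492 by edgeR) and did not pass without any single pair. Nt5e did not pass without pair 3 (0.30, adjusted p = 0.111) or in DESeq2 with the block (0.37, adjusted p = 0.348). The 2 that fell were Ptpn14 and Ccdc80, a matrix protein, by 0.42. Ccdc80 averaged 12.6 ± 15.6 against 16.5 ± 19.4 CPM (SD, n = 3), most of it from number 2, and without pair 2 its value was -0.55 with an adjusted p of 0.104. Nor did it pass without pair 1 (-0.31, adjusted p = 0.0812) or in DESeq2 with the block (-0.41, adjusted p = 0.313). Without pair 2, 3 rose and 0 fell, with 339 higher and 205 lower among all genes in that fit.

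Serum response factor and its MRTF cofactors also drive Ctgf, Cyr61 and Ankrd1, so these factors and their other targets were listed. That list of 15 includes the genes of the factors themselves, Srf, Mkl1 and Mkl2. In it the paired test called 2 higher and 0 lower (13.3%, against 8.81% of all genes), with a median of 0.04. Without pair 3 it called 2 higher and 2 lower, with 560 higher and 600 lower among all genes in that fit. Actb, cytoplasmic β-actin, averaged 3402 ± 312 against 2998 ± 168 CPM (SD, n = 3) and rose by a log2 value of 0.18 (adjusted p = 0.00206 by edgeR), and Actg1, γ-actin, rose by 0.17 (adjusted p = 0.00413). Tagln had 0.09 and Flna 0.08, and neither passed.

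**Figure D4:**
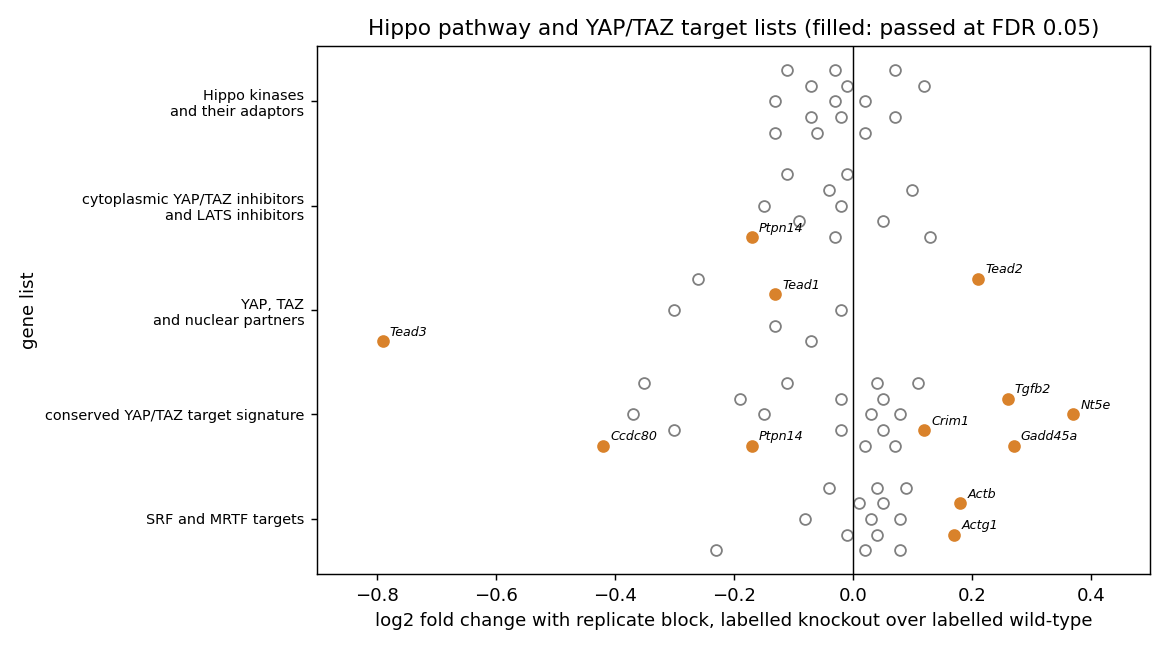
Log2 fold change in the paired test of every tested gene in the 5 lists, filled and named where it passed an FDR of 0.05 and open where it did not; vertical position within a list only separates the points. The kinase list holds no filled point, and most genes lie between -0.2 and 0.2.

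Marker lists of cell state moved with the group in the same fit, in which 4.81% of all genes were called higher and 4.01% lower, and are given beside these results. Of 10 immediate early genes, listed as markers of cell handling, 7 fell and 0 rose. Their sum was 582 to 672 CPM in the knockout libraries and 746 to 870 CPM in the wild-type libraries. Cyr61 and Ctgf are also known to respond to handling, and the part of handling in this fall was not tested. Egr1 fell by 0.86 and Dusp1 by 0.28 on the log2 scale. Of 10 division genes, 10 rose, and their sum was 261 to 439 against 150 to 235 CPM, with Top2a rising by 0.88. Of the endothelial markers 2 rose, Emcn by 0.20 and Tek by 0.16, and Cdh5 had 0.05. Without pair 2 neither passed (Emcn 0.17, adjusted p = 0.152, and Tek 0.15, adjusted p = 0.288), and Tek was also lost in DESeq2 with the block (adjusted p = 0.182). Of 8 fibroblast markers tested, 2 rose and 2 fell, with Fn1 rising by 0.18, and of 9 mural markers 3 fell, with Cspg4 falling by 0.62. The median log2 ratio of the mural markers was -0.43, -0.49 and 0.20 in pairs 1 to 3, so pair 3 went the other way. Fn1 was lost without pair 2 (0.15, adjusted p = 0.379) and Cspg4 in DESeq2 with the block (-0.51, adjusted p = 0.491). Of 3 blood cell markers tested 1 rose, Laptm5 by 0.33, and of 3 astrocyte and neuron markers 0 passed, with Aldh1l1 at 0.17 and Tubb3 at -0.0041. Tubb3 passed in opposite directions without pair 1 (-0.29, adjusted p = 0.0337) and without pair 2 (0.39, adjusted p = 0.0445). The part of these shifts in the values of Tead1 and of the lists was not tested.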

How the data were processed

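Polyadenylated RNA from 6 sorted samples was measured. The authors deposited raw read counts per gene symbol, not normalised, 1 column per library. Per the submitters' processing notes, tools included the STAR aligner (2.6.1d) and featureCounts from Subread (1.6.4), with builds mm10 and GRCm38; the annotation and strand setting are not stated there. Kits of both kinds, stranded and not, appear in the labels' protocols without assignment to samples. Of the 10 genes, 3 share exon bases with a gene that has no row: Ctgf with Gm15270 (665 bases, opposite strand), Yap1 with Gm20416 (116, opposite) and Lats2 with Gm49361 (2955, same strand), and reads there cannot be told apart.

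The main tool was edgeR 4.0.16 in R 4.3.3, with filterByExpr, TMM (factors 0.983 to 1.02) and robust quasi-likelihood tests, Benjamini-Hochberg adjusted over all 12753 genes tested, at an FDR of 0.05. Standard errors are the log2 fold change divided by the root of F, and 95% intervals are unadjusted. Pair log2 ratios add 0.5 CPM. An exact permutation test of 3 against 3 cannot go below p = 0.1, so no single gene was tested alone. DESeq2 1.42.0 and limma 3.58.1 were alternatives. The tests were also run on counts simulated from the fitted paired model. That simulation takes the pairing and its spread as given and so cannot check them. Gene positions and exon lengths come from GENCODE M21 on GRCm38, in which 95.6% of symbols matched.

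Replicate numbers were taken to pair the libraries because same-numbered libraries deviated together (correlations 0.776, 0.857 and 0.652); the labels do not state a pairing. With the block, edgeR's biological coefficient of variation was 0.0383 in place of 0.189, on 2 residual degrees of freedom, so paired p-values rest on a spread pooled across genes. With scaling by library size alone, 39.1% of paired calls were higher, against 54.5% with TMM.

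Named were the 10 genes, the 4 other genes of each pathway list with the smallest paired p, the most abundant and smallest-p gene of each marker list, and the 3 genes most correlated with each of 5 members. Nt5e, Crim1, Igfbp3, Axl, Col1a1, Pdgfrb, Pecam1 and Tek lie outside this rule and were named after their values were seen. The members and lists were chosen with earlier results of these data known.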

Additional observations from a re-analysis of the deposited data

How the results depend on the processing

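Of all genes tested, DESeq2 without the block called 12 higher and 7 lower, limma-voom called 0 lower, and leaving out 1 library gave 0 to 1 lower. The replicate block called 613 and 511, with 1 of the 10 YAP/TAZ genes lower and 7 and 4 genes of the pathway lists; the pairing changed no other call of the 10. With the block, scaling by library size alone called 471 higher and 734 lower, DESeq2 262 and 111, and a minimum of 1.5-fold 22 and 5. Leaving out a pair gave 339 to 603 higher and 205 to 600 lower, fewest of both without pair 2. Of the 10 genes, 3 were lower with library size alone, 0 with DESeq2 and 0 at 1.5-fold. Leaving out a pair gave 0 to 1 higher (Ankrd1, without pair 1) and 0 to 2 lower (0 without pair 2). Of the pathway lists, 8 were lower with library size alone, 4 higher and 1 lower with DESeq2, 0 and 0 at 1.5-fold, and 5 to 7 higher and 0 to 11 lower without a pair (0 without pair 2, 11 without pair 3). The genes differing by replicate number were 3 to 7 of the 10 when 1 library was left out, fewest without either library numbered 2. The share of all genes in those fits ran from 23.6% without wild-type library 2 to 38.1% without knockout library 1. The cause was not tested.

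In the unpaired comparison, 1 library fewer turned the log2 fold change of Yap1 (-0.30 to 0.074), Tead4 (-0.08 to 0.074), Lats2 (-0.06 to 0.012), Cyr61 (-0.10 to 0.19), Ankrd1 (-0.27 to 0.32), Tead3 (-1.69 to 0.62), Vgll3 (-1.09 to 0.70), Ccdc80 (-2.11 to 1.16), Tagln (-0.071 to 0.22), Cdh5 (-0.006 to 0.10), Cspg4 (-2.36 to 1.15), Aldh1l1 (-0.014 to 0.30), Col1a1 (-1.27 to 0.70), Pecam1 (-0.006 to 0.16), Pdgfrb (-1.71 to 0.95) and Tubb3 (-0.41 to 0.63). Leaving out a pair turned Tead4 (-0.076 to 0.051) and Tubb3 (-0.29 to 0.39), and Tubb3 was also turned by limma-voom (0.079) and by DESeq2 with the block (0.079). Depth limits Tead4 most of the 10.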
